A study of Mus musculus with 23 samples.

Results

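The spleens of C57BL/6J mice were compared 24 h after a whole-body exposure to 1 Gy of gamma rays and without exposure, across all genes that the arrays detected. The 2 groups were chosen by strain and treatment label and hold 8 of the 23 arrays of the study, 4 from irradiated and 4 from control mice. The irradiated mice received the dose from 60Co at a rate of 6 Gy per minute, and the controls were sham-exposed. A further C57BL/6J group of 4 arrays, used here for comparison, received 10 cGy from 137Cs at the lower rate of 9 cGy per hour. The same treatments in DBA/2J mice give the remaining 11 arrays. All mice were 10-week-old males of an inbred strain, and each array held a pool of RNA from the spleens of 2 mice, mixed in equal parts. Since the 1 Gy and the 10 cGy groups differ in dose, rate and source at once, the effects of these cannot be told apart. With pools in place of single mice, every p-value reflects the variation among pools.

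The mouse spleen makes blood cells throughout adult life: its red pulp holds precursors of red cells, granulocytes and platelets beside macrophages that take up old red cells, and its white pulp holds B and T cells in a network of chemokine-producing stromal cells. Ionizing radiation breaks DNA, which stabilises the transcription factor p53, and p53 in turn switches on genes that halt the cell cycle or start cell death. Dividing precursors and resting lymphocytes are both known to be sensitive to radiation. The arrays measure bulk RNA, so fewer cells of a type and less RNA per cell cannot be told apart.

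Between 15077 and 15914 of 34492 probes were detected on each of the 8 arrays (detection p under 0.05), and the median signal was 99.8 to 137 intensity units. The B cell gene Cd79b, the T cell gene Cd3e and the macrophage gene C1qa, markers of cells that the spleen holds, were detected in all 8 pools. Averaged over 27 B cell genes, the log2 signal was 11.76, 11.66, 11.60 and 11.71 in the 1 Gy pools, against 11.28, 11.28, 11.48 and 11.28 in the control pools. One pool of each group also carried pancreatic transcripts: 20 pancreas and adipose genes averaged 12.62, 7.51, 6.75 and 6.75 in the 1 Gy pools, against 12.52, 7.07, 6.89 and 6.89 in the control pools, so that replicate 1 of each group stood apart from the other 3. The total number of calls without both of these pools follows, and named calls that are lost without them are given where they are described.

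Of 15348 features tested (10334 named genes and 5014 probes without a symbol), 1382 differed between the 1 Gy and the control pools at an adjusted p under 0.05 (limma with Benjamini-Hochberg adjustment over all features), which is 9.00% of those tested. Of these, 623 rose (4.06%) and 759 fell (4.95%). An unadjusted p under 0.05 was found for 3592 features (23.4%), and for 2747 (17.9%) the 4 pools of one group all lay beyond the 4 pools of the other (9.85% higher and 8.05% lower after 1 Gy). The 2 directions differed in size. The median rise was 0.50 on the log2 scale and the largest 2.28, whereas falls had a median of 1.04 and reached 5.59. A change of at least 1 log2 unit was found for 409 of the features that fell (2.66% of those tested) and for 16 of those that rose (0.104%). On the first principal component of all features, which held 51% of the variance, the 1 Gy pools lay between -30.4 and -21.9 and the control pools between 17.3 and 35.3. The number of calls depended on single pools: it was 877 without control replicate 2, 878 without control replicate 4 and 882 without 1 Gy replicate 1. Without both pools that carried pancreatic transcripts, 871 features were called. The share of rises among the calls, 45.1% here, was 31.5% with median scaling, 34.8% with cyclic loess and 60.2% with a background inferred from the detection p-values, so this split depends on the normalization. None of the 1382 calls turned its direction in any alternative that tested it.

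**Figure D1:**
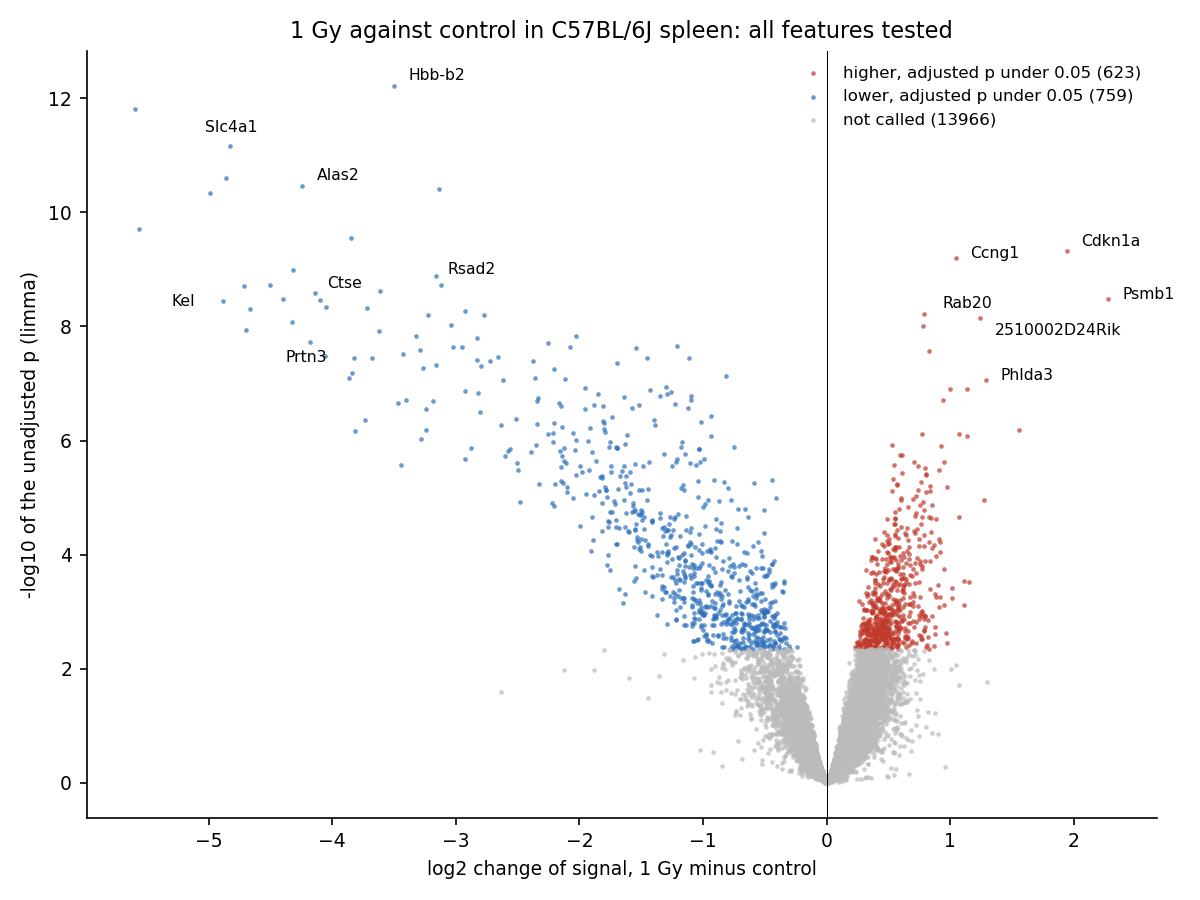
Each point is 1 of the 15348 features tested, with its log2 change (1 Gy minus control) on the x axis and -log10 of its unadjusted limma p on the y axis; red points are the 623 called higher, blue points the 759 called lower and grey points those not called. Falls extend to 5.59 log2 units and rises to 2.28.

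Among named genes, the deepest falls were those of red cell precursor genes. All 12 tested genes of heme synthesis fell, as did 19 of 20 red cell membrane genes, 5 of 5 globin genes and 12 of 16 red cell enzyme genes. Their median changes were -1.70, -2.95, -0.92 and -1.15 log2 units, where the median of all features was 0.04. Kel, the Kell blood group protease of the red cell surface, had a log2 signal of 6.80, 6.5, 7.21 and 7.21 in the 1 Gy pools, against 11.14, 12.32, 11.64 and 12.15 in the control pools. The groups were far apart, and the signal was 29.5 times lower after 1 Gy (log2 change ± standard error -4.88 ± 0.51, adjusted p = 2.47e-06). Ermap, an erythroid membrane protein (-4.33 ± 0.47), Rhag, the Rh-associated glycoprotein (-3.68 ± 0.44), and Sptb, the spectrin beta chain (-4.32 ± 0.42), fell to a like extent. Sptb had 11.18, 12.35, 11.33 and 11.86 in the control pools, yet its detection p was under 0.05 in 1 control and 2 irradiated pools, so a high detection p is not always a low signal in these arrays. Among the enzymes, the carbonic anhydrases Car1 (-4.50 ± 0.45) and Car2 (-4.10 ± 0.42) fell furthest. Slc38a5, an amino acid transporter that belonged to none of the gene lists used here, had a log2 signal of 9.39, 7.16, 8.998 and 8.61 in the 1 Gy pools, against 12.76, 13.77, 12.88 and 13.43 in the control pools. Its change of -4.67 ± 0.49 (adjusted p = 3.08e-06) was as deep as that of the membrane genes, although the 1 Gy pools differed widely among themselves.

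The fall of heme synthesis ran along the whole pathway. Alas2, the first and rate-limiting enzyme of the erythroid pathway, changed by -4.25 ± 0.34, and the following enzymes Alad, Uros and Urod changed by -1.70 ± 0.20, -1.83 ± 0.30 and -1.81 ± 0.24. Fech, which inserts the iron, had a log2 signal of 7.27, 7.08, 7.09 and 7.26 in the 1 Gy pools, against 9.004, 9.48, 9.23 and 9.40 in the control pools (-2.10 ± 0.36, adjusted p = 5.23e-04), and the irradiated pools were all below the control pools. The transporters Abcb10 and Slc25a38 of the mitochondrial inner membrane changed by -1.91 ± 0.27 and -1.33 ± 0.31, and the smallest fall in the list was that of Tmem14c (-0.71 ± 0.15). With the background inferred from the detection p-values, Fech and Abcb10 were not called.

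The fitted changes of the globin genes differed in size, and their count of 5 was 3 without control replicate 1 or 2, without 1 Gy replicate 1 or 4 and without both pools that carried pancreatic transcripts. Hbq1b, a theta globin gene, was detected in every control pool and in none of the 1 Gy pools, and its signal was at least 16.03-fold lower after 1 Gy. Hbb-b2, an adult beta globin gene, had a log2 signal of 7.86, 8.28, 8.13 and 8.22 in the 1 Gy pools, against 11.25, 12.41, 11.54 and 11.30 in the control pools (-3.50 ± 0.23, adjusted p = 9.26e-09). Hbb-bt, another beta globin gene, had 15.17, 15.35, 15.24 and 15.33 in the 1 Gy pools, against 15.67, 15.75, 15.73 and 15.57 in the control pools (-0.41 ± 0.07). These levels lie at the bright end of the scale, and whether changes are compressed there was not tested. The change of Hbb-bt is therefore not set against that of Hbb-b2. Beta globin genes are near-identical in sequence, so probes may share transcripts.

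Regulators and suppliers of red cell formation fell with them. Of 16 erythroid transcription factor and receptor genes 10 fell and 0 rose (median -1.18). The deepest changes were those of Klf1, the erythroid Kruppel-like factor (-4.72 ± 0.47), Hemgn, the nuclear protein hemogen (-4.70 ± 0.52), Tal1 (-3.61 ± 0.37) and Nfe2 (-3.22 ± 0.35). The count of 10 was 6 with a background inferred from the detection p-values, where the calls of Gata1 (-2.10 ± 0.35), the founding factor of the lineage, and Epor, the erythropoietin receptor (-1.82 ± 0.30), were lost. Tfrc, the transferrin receptor that brings iron into dividing and heme-making cells, had a log2 signal of 10.26, 10.16, 10.29 and 10.40 in the 1 Gy pools, against 12.63, 14.10, 13.26 and 13.86 in the control pools. The 1 Gy pools lay close to each other and all below the control pools (-3.18 ± 0.42, adjusted p = 3.60e-05). The mitochondrial iron importer Slc25a37 (-2.83 ± 0.34) and the second transferrin receptor Tfr2 (-1.92 ± 0.31) fell as well, but the iron list as a whole did not: 4 of 20 members fell, 2 rose and the median was 0.10. Over the alternatives the number of rises ran from 0, without control replicate 4 or 1 Gy replicate 2, to 6 with array weights. The number of falls ran from 2 with the inferred background to 4, and the fall of Slc11a2, an iron transporter (-0.91 ± 0.23), was not called without control replicate 2, with the inferred background or with the authors' processed values. Of 16 genes of autophagy and ubiquitin transfer in maturing red cells 7 fell, among them Ube2o (-2.12 ± 0.27) and Ube2l6 (-2.20 ± 0.31). Bcl2l1, the survival protein Bcl-xL of late red cell precursors, was 2.75 times lower (-1.46 ± 0.25, adjusted p = 6.78e-04). The calls of Tfr2 and Bcl2l1 were lost with the background inferred from the detection p-values.

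Promoter windows of 300 bases (250 before to 50 after a gene start, from RefSeq on GRCm38.p6) are shown for a heme enzyme gene and a membrane gene, because both fell by over 4 log2 units and GATA-binding factors are known regulators of erythroid genes. Capitals mark AGATAA or its reverse complement. The Alas2 window lies at chrX:150547167-150547466 (plus strand) and the Kel window at chr6:41704276-41704575 (minus strand, written 5′ to 3′ along the gene).
Alas2: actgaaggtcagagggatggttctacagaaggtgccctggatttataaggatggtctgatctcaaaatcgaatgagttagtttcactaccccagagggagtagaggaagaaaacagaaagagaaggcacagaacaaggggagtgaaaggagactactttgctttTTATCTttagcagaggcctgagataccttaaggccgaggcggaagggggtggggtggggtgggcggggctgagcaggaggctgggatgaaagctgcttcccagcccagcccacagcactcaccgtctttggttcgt
Kel: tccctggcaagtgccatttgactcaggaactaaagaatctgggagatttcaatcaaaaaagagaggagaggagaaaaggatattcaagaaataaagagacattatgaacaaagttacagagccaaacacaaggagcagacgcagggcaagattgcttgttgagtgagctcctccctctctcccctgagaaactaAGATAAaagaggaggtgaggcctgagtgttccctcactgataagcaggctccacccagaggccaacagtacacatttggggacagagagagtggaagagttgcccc
Each window holds 1 such hexamer. On both strands, AGATAA occurred in the windows of 5 of 14 red cell membrane genes with a window (35.7%) and of 1 of 11 heme synthesis genes (9.09%), beside 12.7% of the 503 genes called lower, 7.65% of the 379 called higher and 8.80% of all 8395 tested genes with a window. The letters CACACCC, to which erythroid Kruppel-like factors are known to bind, occurred in 12.1% of the windows of genes that fell, 13.7% of those that rose and 10.2% of all, and in 0 of the 14 red cell membrane and 0 of the 11 heme synthesis windows. These are counts of letters in a short window and not of bound sites.

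Granulocyte genes fell almost as far. Of 8 genes of primary granules, which arise in early granulocyte precursors, 5 fell (median -3.22), and of 20 genes of later neutrophils 12 fell (median -1.40). None rose. Prtn3, which encodes proteinase 3, had a log2 signal of 7.28, 7.67, 7.57 and 6.88 in the 1 Gy pools, against 12.39, 11.35, 10.34 and 12.04 in the control pools. The 1 Gy pools lay close together while the control pools spanned 2 log2 units, without overlap (-4.18 ± 0.48, adjusted p = 7.36e-06). Elane (neutrophil elastase) and Ctsg (cathepsin G), which share these granules, changed by -3.87 ± 0.48 and -3.84 ± 0.47. Of the neutrophil genes, Ngp, Ltf and Lcn2 of the secondary granules changed by -3.82 ± 0.55, -3.73 ± 0.52 and -3.44 ± 0.54, while the calcium-binding proteins S100a8 and S100a9, which mature neutrophils hold in large amounts, changed by -1.24 ± 0.25 and -1.77 ± 0.39. Less abundant granulocyte types had single genes that fell. Prss34, a basophil and mast cell protease, changed by -2.32 ± 0.39. Epx, the eosinophil peroxidase, was detected in all control and no 1 Gy pools and was at least 2.71-fold lower, with 6.32, 6.38, 6.58 and 6.39 in the 1 Gy pools and 8.12, 8.31, 6.98 and 8.33 in the control pools. The other 9 of 11 tested eosinophil, basophil and mast cell genes were not called, and the list median was -0.06.

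Platelet genes fell less deeply but as broadly: 14 of 17 megakaryocyte and platelet genes fell and none rose, with a median of -1.09. Vwf, the von Willebrand factor of platelets and endothelium, had a log2 signal of 10.51, 10.41, 10.45 and 10.43 in the 1 Gy pools, against 11.64, 11.36, 11.16 and 11.82 in the control pools. The 4 irradiated pools were nearly equal and all lay below the lowest control pool (-1.04 ± 0.18, adjusted p = 6.12e-04). Treml1, a receptor of platelet granules, changed by -1.56 ± 0.28, and Gp5, a subunit of the platelet receptor for von Willebrand factor, by -1.35 ± 0.25. Pdzk1ip1, a small membrane protein, had the deepest fall of the list (-3.72 ± 0.39). The count of 14 was 9 without control replicate 1, 8 without both pools that carried pancreatic transcripts and 8 with the background inferred from the detection p-values. Among stem and progenitor genes, 3 of 12 fell (Car1 and Rhag, which red cell precursors also express, and the mucin gene Muc13, -1.39 ± 0.20), 1 rose and the median was 0.08. The Muc13 call was lost with the inferred background, and the count of falls in this list was 5 without control replicate 1. The rise in this list was not called without any single pool except control replicate 1 and 1 Gy replicate 3.

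**Figure D2:**
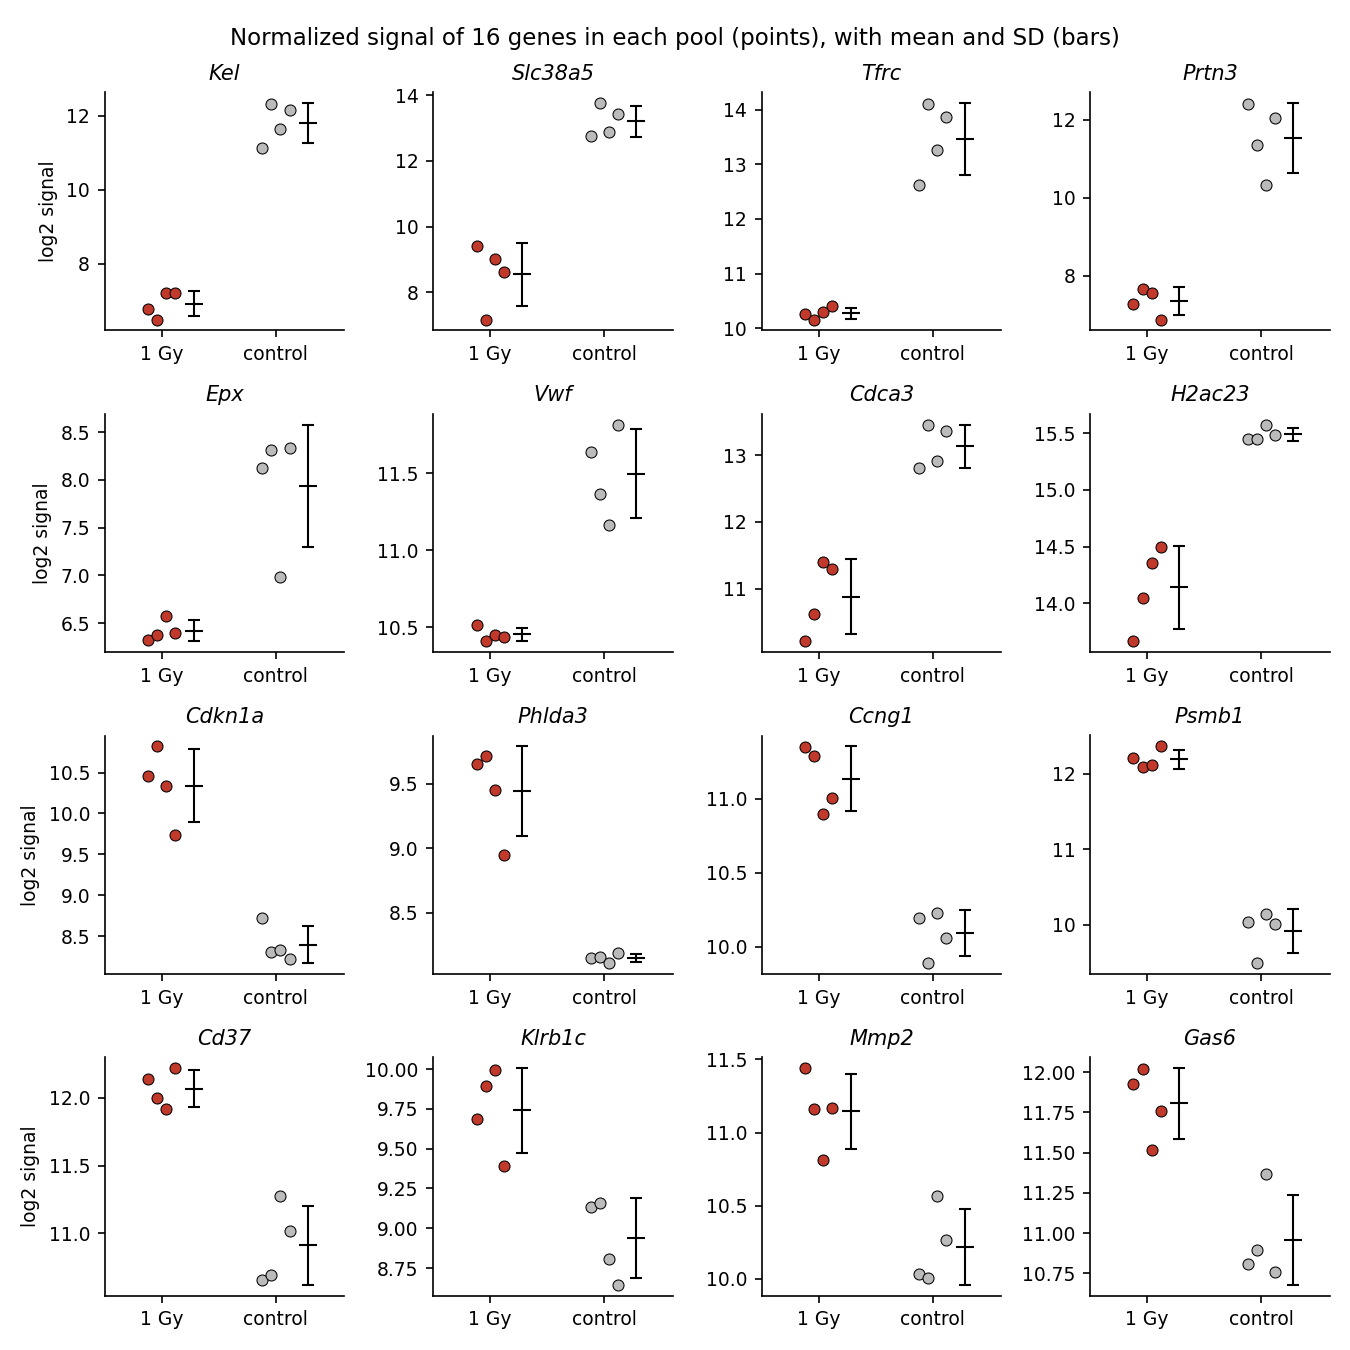
The log2 normalized signal of 16 genes is plotted for each 1 Gy pool (red, left) and each control pool (grey, right), with the mean and SD of the 4 pools as a bar beside the points; each panel has its own y axis. The 16 genes were chosen with their values known, 8 lower and 8 higher in the 1 Gy pools, and the groups do not overlap in any panel. Over all features tested, the groups do not overlap for 17.9% (9.85% higher and 8.05% lower after 1 Gy).

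Genes of cell division fell together. Of 45 genes of mitosis and cytokinesis 29 fell (median -1.29), of 39 genes of DNA replication 22 fell (median -0.69) and of 26 genes of nucleotide synthesis 10 fell (median -0.34). No member of these 3 lists rose. Cdca3, a trigger of mitotic entry, had a log2 signal of 10.21, 10.62, 11.40 and 11.29 in the 1 Gy pools, against 12.80, 13.46, 12.91 and 13.36 in the control pools. All irradiated pools were below all control pools, by 4.76 times on average (-2.25 ± 0.33, adjusted p = 9.53e-05). The mitotic kinases Plk1, Aurka and Aurkb changed by -1.90 ± 0.35, -1.87 ± 0.29 and -1.41 ± 0.32, the chromosome motor Kif22 by -2.21 ± 0.32 and the topoisomerase Top2a by -1.78 ± 0.31. On the replication side, E2f1, an activator of S phase genes, changed by -1.16 ± 0.24, the histone chaperone Chaf1b by -1.44 ± 0.29 and the flap endonuclease Fen1 by -1.33 ± 0.28. Tk1, thymidine kinase, had a log2 signal of 8.55, 9.10, 9.01 and 9.26 in the 1 Gy pools, against 10.24, 10.78, 10.39 and 10.78 in the control pools (-1.57 ± 0.28, adjusted p = 7.32e-04). Of 8 tested Mcm genes, most of which encode the replication helicase, 6 fell. The 2 that were not called were Mcm8 (-0.05 ± 0.12) and Mcm9 (-0.07 ± 0.10), which act in recombination, and the Mcm6 call (-0.98 ± 0.29) was lost without control replicate 2 or 4, without 1 Gy replicate 1, 2 or 4 and without both pools that carried pancreatic transcripts. Of 21 tested Cdk genes, none was called, beside 9.00% of all features. The nucleotide synthesis count was 6 without control replicate 2, 1 Gy replicate 1 or 1 Gy replicate 2, and 6 with median scaling. Without both pools that carried pancreatic transcripts it was 6 and the DNA replication count 14. With the background inferred from the detection p-values, the counts were 19 for mitosis, 13 for replication and 5 for nucleotide synthesis.

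The detection filter had left out several well-known cell cycle genes, because bright probes can lack a low detection p in the deposited table. With a filter on the signal itself, chosen after seeing the data, 10273 more features were tested and 119 of them were called. Cdk1, the kinase that drives mitosis, changed by -1.90 ± 0.25 (adjusted p = 5.33e-05) with that filter, Cdc6, a loader of the replication helicase, by -2.004 ± 0.35, Cenpe, a kinetochore motor, by -2.02 ± 0.37, and the helicase gene Blm by -1.79 ± 0.27. Trim10, a gene of late red cell precursors, was the deepest of these falls at -3.52 ± 0.44.

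Histone genes, grouped after their values were seen, were called unevenly. Of 12 tested clustered H2A genes 10 fell, with log2 changes of -1.35 to -0.89, beside 0 of 10 H2B, 0 of 3 H3 and 0 of 9 H4 genes, whose medians were -0.50, -0.48 and -0.54 and whose changes ran between -0.61 and 0.07, -0.51 and -0.48, and -0.75 and -0.15 in that order, so that most lay below 0 in every class. H2ac23 had a log2 signal of 13.66, 14.05, 14.35 and 14.50 in the 1 Gy pools, against 15.45, 15.45, 15.58 and 15.49 in the control pools. All 1 Gy pools lay below all control pools, although the gene was among the brightest features of the array (-1.35 ± 0.18, adjusted p = 3.12e-05). The clustered H2A genes encode near-identical transcripts, so the 10 calls may rest on shared signal and do not count as 10 separate genes. The difference between the H2A and the other histone genes was not tested.

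The promoters of a pair of mitosis genes and of a helicase gene are shown for the motifs that are known to mark such genes. In Cdca3 (chr6:124829926-124830225, plus strand) and Plk1 (chr7:122159185-122159484, plus strand) capitals mark the CHR element TTTGAA and CCAAT boxes, and in Mcm5 (chr8:75109259-75109558, plus strand) the E2F letters TTGGCGC or TTCCCGC, each on either strand.
Cdca3: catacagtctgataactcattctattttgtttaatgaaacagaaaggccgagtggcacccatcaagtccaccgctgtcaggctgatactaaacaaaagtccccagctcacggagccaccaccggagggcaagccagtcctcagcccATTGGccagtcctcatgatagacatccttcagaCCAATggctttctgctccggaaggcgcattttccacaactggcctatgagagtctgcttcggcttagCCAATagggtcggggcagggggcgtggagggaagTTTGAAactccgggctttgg
Plk1: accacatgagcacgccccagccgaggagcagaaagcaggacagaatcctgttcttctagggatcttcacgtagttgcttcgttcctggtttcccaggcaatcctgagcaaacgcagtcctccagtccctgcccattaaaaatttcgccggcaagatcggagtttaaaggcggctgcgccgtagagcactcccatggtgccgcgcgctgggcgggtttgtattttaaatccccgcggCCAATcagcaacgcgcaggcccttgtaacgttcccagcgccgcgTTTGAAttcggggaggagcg
Mcm5: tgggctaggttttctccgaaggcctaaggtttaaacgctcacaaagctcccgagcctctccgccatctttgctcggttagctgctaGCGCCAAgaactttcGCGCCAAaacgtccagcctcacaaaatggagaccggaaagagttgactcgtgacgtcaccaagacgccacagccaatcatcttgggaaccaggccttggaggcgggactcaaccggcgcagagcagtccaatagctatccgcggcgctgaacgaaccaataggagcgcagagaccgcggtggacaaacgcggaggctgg
In Cdca3 and Plk1 the CHR lies downstream of the CCAAT boxes, and in Mcm5 both sites read on the reverse strand. The log2 changes of these genes were -2.25 ± 0.33 for Cdca3, -1.90 ± 0.35 for Plk1 and -1.12 ± 0.23 for Mcm5. The CHR letters occurred in the windows of 24 of 35 mitosis genes (68.6%), beside 18.7% of genes called lower, 13.2% of genes called higher and 14.8% of all tested genes. The E2F letters occurred in 16 of 31 replication genes (51.6%), beside 14.9%, 11.1% and 13.1%. CCAAT occurred in 65.7% of the mitosis and 64.5% of the replication genes, beside 51.7%, 42.2% and 42.3%. The lists were drawn up by function and hold genes already known for these motifs, so the shares describe the lists and are no test of the irradiation.

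Targets of p53 were among the rises, by less than the precursor genes fell. Of 31 tested targets 10 rose, 1 fell and the median was 0.38, beside 4.06% of all features that rose. Cdkn1a, the cell cycle inhibitor p21, had a log2 signal of 10.46, 10.82, 10.33 and 9.74 in the 1 Gy pools, against 8.72, 8.31, 8.33 and 8.22 in the control pools. It was 3.84 times higher after 1 Gy (1.94 ± 0.18, adjusted p = 7.41e-07), with the fourth irradiated pool the lowest of its group. The same pool was lowest for Phlda3, a repressor of Akt signalling, whose log2 signal was 9.65, 9.72, 9.45 and 8.95 in the 1 Gy pools, against 8.15, 8.16, 8.11 and 8.19 in the control pools (1.29 ± 0.16, adjusted p = 1.97e-05). Zmat3, an RNA-binding protein, rose by 0.86 ± 0.15, Plk2, a kinase of the centrosome cycle, by 0.55 ± 0.12, and Sulf2, an extracellular sulfatase, by 0.50 ± 0.10. Of the p53 targets that promote cell death, Pmaip1 (Noxa) rose by 0.51 ± 0.12 at a low signal, whereas Bbc3 (Puma) was measured at 0.25 ± 0.09 (adjusted p = 0.102) and Fas at 0.06 ± 0.13 (adjusted p = 0.832). The target that fell was Ckap2 (-1.23 ± 0.28), a spindle protein that is also a cell cycle gene. The Ckap2 call was lost with the inferred background and with the authors' processed values, the Plk2 call without both pools that carried pancreatic transcripts and the Sulf2 call with median scaling.

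Genes known from the DNA damage response did not all rise. The list counts in this paragraph stand beside 4.06% of all features that rose and 4.95% that fell. Gadd45a, known as a growth arrest gene induced by DNA damage, fell: its log2 signal was 9.74, 10.01, 9.79 and 10.11 in the 1 Gy pools, against 11.53, 11.98, 11.44 and 11.50 in the control pools, without overlap (-1.70 ± 0.26, adjusted p = 1.42e-04). Ppp1r15a, the stress gene Gadd34, changed by -2.14 ± 0.33. Both were outside the lists and were named after their values were seen. Of 28 genes of DNA break signalling and repair 8 fell, led by Clspn (-1.69 ± 0.34), Rad51ap1 (-1.44 ± 0.29) and Rad54l (-1.43 ± 0.30), which act at replication forks or in homologous recombination. The count was 1 with the background inferred from the detection p-values, where none of these 3 was called. The 1 member that rose was Xrcc4, a factor of end joining (0.45 ± 0.12), and its call was lost without control replicate 3 or 1 Gy replicate 2, with median scaling and with the 8 arrays of the 2 groups alone. Paxx, another end joining factor, outside the list, rose by 0.95 ± 0.15. Of 23 genes of base, mismatch and nucleotide excision repair 2 fell, 0 rose and the median was -0.02. These falls, of the DNA ligase gene Lig1 (-1.01 ± 0.28) and the glycosylase gene Neil3 (-0.88 ± 0.26), depended on single pools: 0 were called without control replicate 2 or 4, without 1 Gy replicate 1 or 2, without both pools that carried pancreatic transcripts, with the inferred background and with the authors' processed values. Of 26 apoptosis regulators 4 rose and 1 fell (Bcl2l1), and the count of rises was 2 without control replicate 4 or 1 Gy replicate 1, 2 with median scaling and 1 without both pools that carried pancreatic transcripts.

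**Figure D3:**
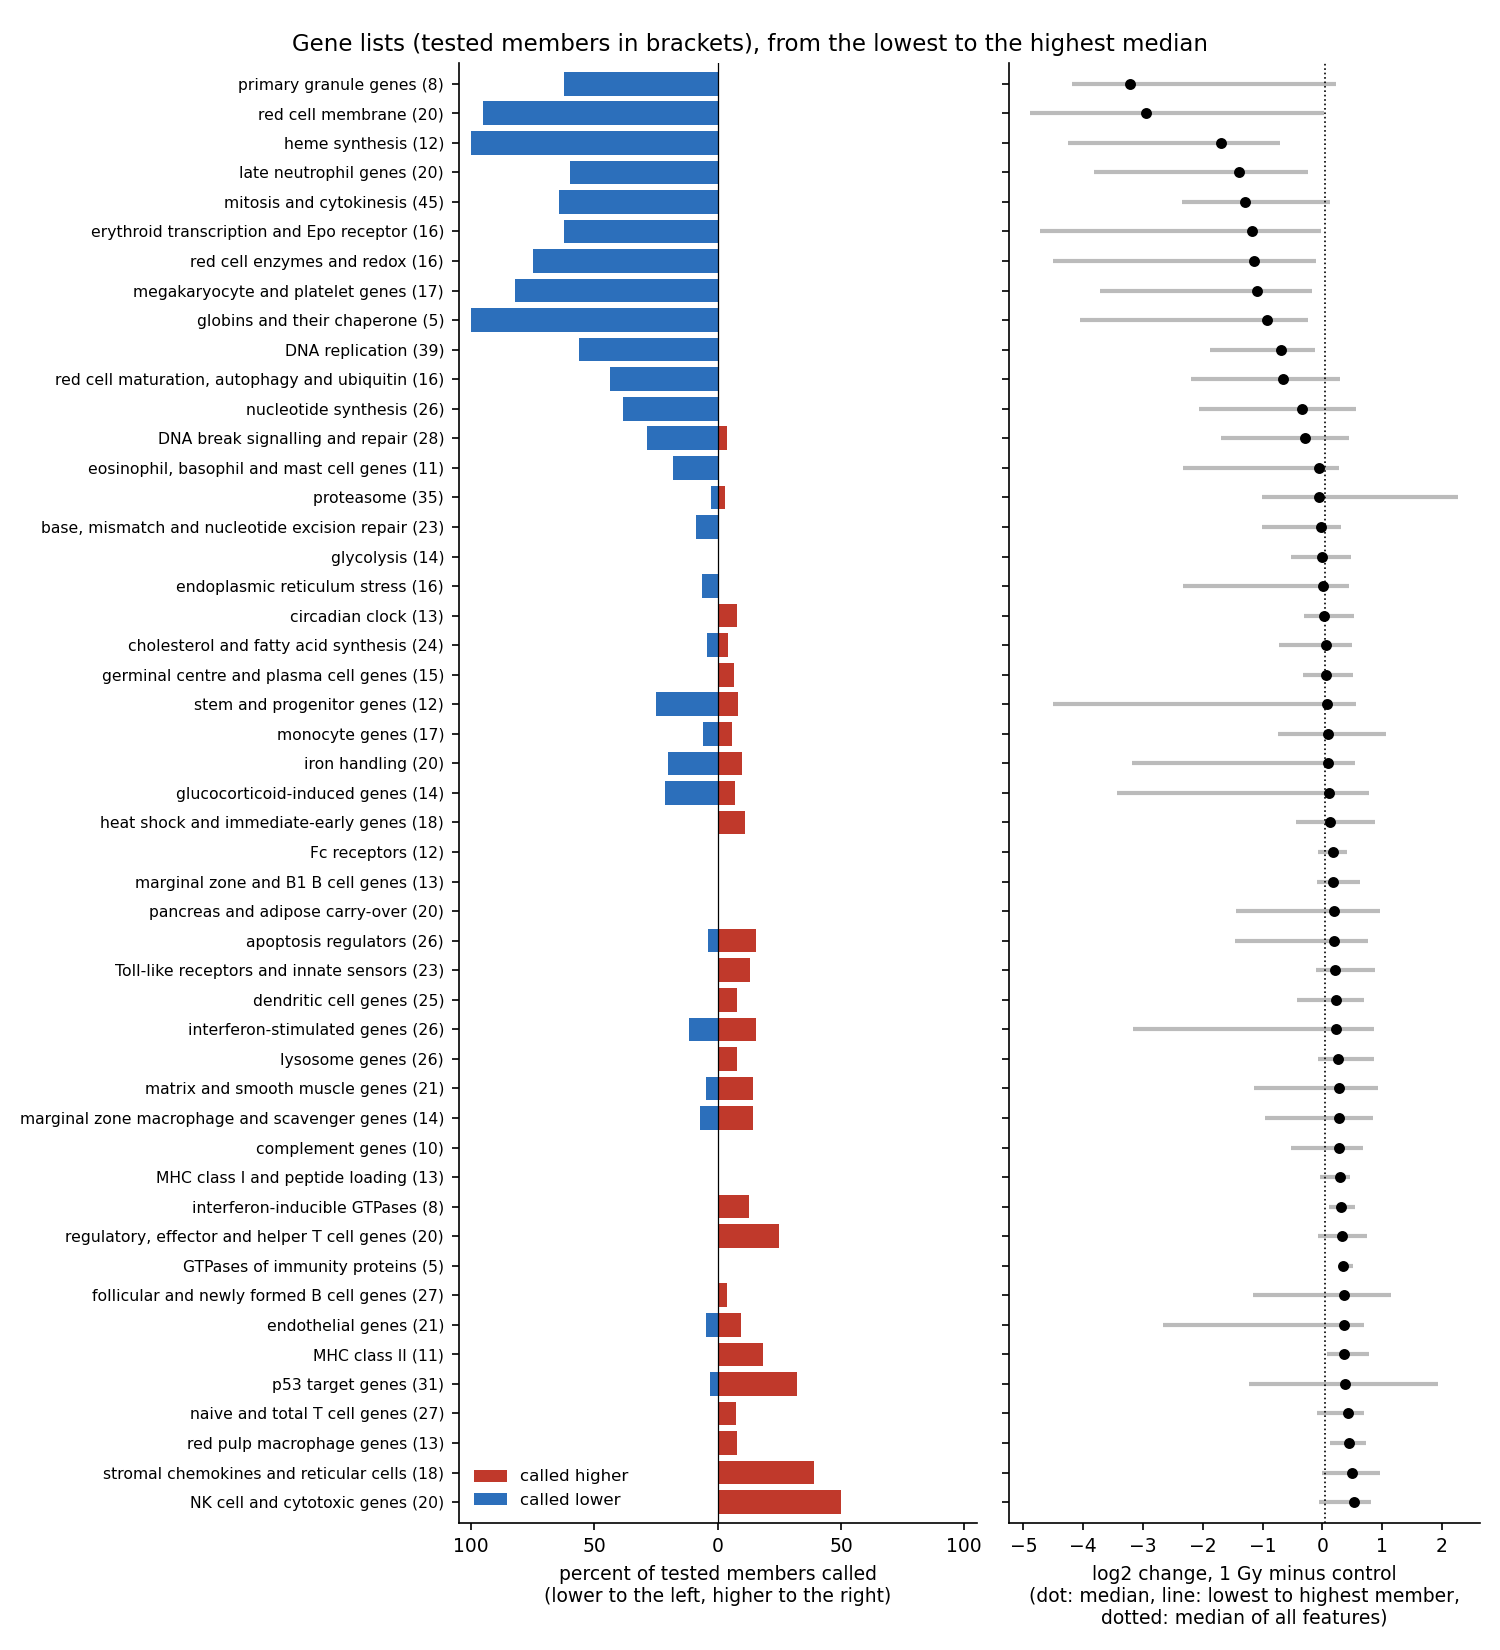
For each of 49 gene lists (tested members in brackets, sorted by median), the left panel shows the percentage of members called lower (blue) and higher (red), and the right panel the median log2 change (dot), the range over its members (line) and the median of all features (dotted line at 0.04). Precursor and cell division lists lie at the top with medians down to -3.22, and no list has a median above 0.54.

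The lists with the largest positive medians were those of natural killer cells and stroma. Of 20 natural killer and cytotoxic genes 10 rose and none fell (median 0.54), beside 4.06% and 4.95% of all features. Klrb1c, the NK1.1 receptor of this strain, had a log2 signal of 9.69, 9.89, 9.99 and 9.39 in the 1 Gy pools, against 9.14, 9.16, 8.81 and 8.64 in the control pools. The groups did not overlap, and the signal was 1.75 times higher (0.80 ± 0.14, adjusted p = 5.11e-04). The lectin-like receptors Klra9 and Klrd1 rose by 0.79 ± 0.16 and 0.58 ± 0.12, and Fasl, the ligand with which cytotoxic cells trigger death, by 0.68 ± 0.15. The list count was 5 without control replicate 2, without control replicate 4 or without 1 Gy replicate 2, 6 without both pools that carried pancreatic transcripts, and 6 with median scaling.

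The 4 lists of B and T cell genes had positive medians, and their rises are set beside the 4.06% of all features that rose. Of 27 T cell genes 2 rose (median 0.43), of 20 genes of regulatory, effector and helper T cells 5 rose (median 0.33), of 27 B cell genes 1 rose (median 0.36) and of 13 marginal zone and B1 genes 0 rose (median 0.18). None of these lists held a called fall. In the B cell list 1 member had a negative change (-1.16), which was not called. Its 1 Gy pools all lay below its control pools, as did those of 8.05% of all features. At least 1 alternative called a fall in this list. With array weights the rises in the 4 lists were 17, 8, 6 and 3 in the order given above, and for T cells the count was 0 without control replicate 2. The B cell gene that rose, Cd37, encodes a tetraspanin of mature B cells and had a log2 signal of 12.14, 11.997, 11.92 and 12.22 in the 1 Gy pools, against 10.66, 10.70, 11.28 and 11.02 in the control pools (1.16 ± 0.27, adjusted p = 0.00777). Among MHC class II genes, 2 of 11 rose (median 0.37), with H2-Eb2 at 0.57 ± 0.14 and H2-DMa, a subunit of the peptide loading factor, at 0.79 ± 0.22, and none of 13 MHC class I genes was called (median 0.29). The H2-DMa call was lost without control replicate 2 or 4, without 1 Gy replicate 2 or 4, without both pools that carried pancreatic transcripts and with the inferred background. The Cd37 call was lost without both pools that carried pancreatic transcripts (adjusted p = 0.0605). The count of 5 in the regulatory, effector and helper list was 1 without 1 Gy replicate 2, 2 without control replicate 4 or 1 Gy replicate 1, 3 without any other single pool except 1 Gy replicate 4, and 2 without both pancreatic pools. Cd247, the zeta chain of the T cell receptor, was one of the T cell rises (0.56 ± 0.14), and its call was lost without control replicate 2. The germinal centre and plasma cell list had a median of 0.07 and 1 rise among 15 genes. It was that of Cd28, a costimulatory receptor of T cells (0.52 ± 0.16), whose call was lost without any single pool except control replicate 4 and in 6 of the other alternatives.

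Several stromal genes rose in small steps. The share of rises was 38.9% in the chemokine and reticular cell list, 14.3% in the matrix list and 9.5% in the endothelial list. Over all features it was 4.06%. The share of falls was 0.0%, 4.8% and 4.8% in the same order, beside 4.95% of all features. Of 18 chemokine and reticular cell genes 7 rose and none fell (median 0.50). Cxcl13, the chemokine of B cell follicles, rose by 0.84 ± 0.18, and Nkx2-3, a transcription factor of spleen stroma, by 0.56 ± 0.12. Of 21 matrix and smooth muscle genes 3 rose and 1 fell (median 0.27; the collagen gene Col5a1, -1.15 ± 0.25), and Mmp2, a gelatinase of stromal cells, had a log2 signal of 11.44, 11.16, 10.81 and 11.17 in the 1 Gy pools, against 10.03, 10.005, 10.57 and 10.26 in the control pools (0.93 ± 0.14, adjusted p = 1.38e-04). Of 21 endothelial genes 2 rose, Cldn5, a tight junction protein (0.70 ± 0.15), and Mmrn2, a matrix protein of vessels (0.70 ± 0.17, a call that was lost without control replicate 4, adjusted p = 0.0514), while Aqp1, a water channel shared with red cells, fell (-2.66 ± 0.32). The matrix count was 1 without control replicate 2, with median scaling and without both pools that carried pancreatic transcripts. The stromal count was 2 without both pools that carried pancreatic transcripts, without 1 Gy replicate 2 and with median scaling, 3 without control replicate 2, 1 Gy replicate 1 or 1 Gy replicate 4, and 4 without control replicate 4 and with the inferred background.

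Macrophage lists showed positive medians and, beside 4.06% of all features, these rises: 1 of 13 red pulp macrophage genes rose (median 0.45; Il18bp, the interleukin 18 binding protein, 0.73 ± 0.13), and 2 of 26 lysosome genes rose (median 0.27), with the protease Ctsd at 0.87 ± 0.17 and the membrane protein Cd63 at 0.56 ± 0.17. The Cd63 call was lost without any single pool except control replicate 1 and 1 Gy replicate 3. Timd4, a receptor for dying cells, rose by 0.85 ± 0.16, whereas Stab1, a scavenger receptor of sinus endothelium and macrophages, fell (-0.95 ± 0.22), a call that was lost without both pools that carried pancreatic transcripts. In the monocyte list Lyz1, a lysozyme gene, rose by 1.07 ± 0.20, Ccr2, the receptor that guides monocytes out of the bone marrow, fell (-0.46 ± 0.13), and the other 15 tested members were not called (median 0.10). The Ccr2 call was lost without control replicate 1 or 4 and without 1 Gy replicate 1, 3 or 4 (adjusted p up to 0.101), and without both pools that carried pancreatic transcripts. Of 25 dendritic cell genes 2 rose, beside 4.06% of all features. They were Cd207 (langerin, 0.70 ± 0.12) and Klrd1, which is also counted among the natural killer genes.

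Interferon-stimulated genes split. Of 26 tested members 4 rose and 3 fell (median 0.24), beside 4.06% and 4.95% of all features. Rsad2, the antiviral enzyme viperin, had a log2 signal of 10.39, 11.30, 10.84 and 10.51 in the 1 Gy pools, against 13.83, 14.55, 13.76 and 13.55 in the control pools, 8.97 times lower and without overlap (-3.16 ± 0.31, adjusted p = 1.57e-06). The exonuclease gene Isg20 fell too (-1.61 ± 0.23). In the opposite direction, Parp14, an ADP-ribosyltransferase, rose by 0.87 ± 0.21 and Trim30a by 0.43 ± 0.09. The Trim30a call was lost with median scaling and the Parp14 call without both pools that carried pancreatic transcripts, where 1 of the 4 rises of this list was called, and the count of rises was 2 without control replicate 4 or 1 Gy replicate 2 and with median scaling. Of 14 tested genes induced by stress hormones 3 fell and 1 rose (median 0.12), beside 4.95% and 4.06% of all features. The deepest of these falls was that of Lcn2 (-3.44), which is also counted among the neutrophil genes. The others were those of the metallothioneins Mt1 and Mt2, which metals also induce. Mt1 and Mt2 changed by -0.87 ± 0.15 and -0.997 ± 0.18, with the Mt2 call lost with the inferred background. The rise, that of Sgk1, was not called without any of 7 single pools. Asns, the asparagine synthetase induced by amino acid shortage, changed by -2.33 ± 0.31 and was the single called member of 16 tested endoplasmic reticulum stress genes. Egr1, an immediate-early transcription factor, rose by 0.89 ± 0.19.

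The largest rise of all had no counterpart in its own complex. Psmb1, a subunit of the proteasome core, had a log2 signal of 12.21, 12.08, 12.11 and 12.36 in the 1 Gy pools, against 10.03, 9.49, 10.14 and 10.01 in the control pools. It was 4.84 times higher after 1 Gy (2.28 ± 0.23, adjusted p = 2.47e-06), while the other 34 tested proteasome genes included no rise and 1 fall (Psme3, -1.01 ± 0.26), and the list median was -0.06. The Psme3 call was lost without control replicate 2 or 4 and without 1 Gy replicate 2 or 3 (adjusted p up to 0.0668). Psmb1 was measured by a single probe here, and whether the probe also binds another transcript was not tested. Several large families had no called member, beside 9.00% of all features called: 34 Rpl and 21 Rps genes of the cytoplasmic ribosome, 45 Mrpl and 22 Mrps genes of the mitochondrial ribosome, 25 Mediator genes (Med) and 26 Usp genes of ubiquitin removal. They were picked for having none, from 11 such families of at least 20 genes among 149 grouped by symbol. In 6 of the 149, at least 30% were called in 1 direction: Mcm lower, and Akr, Cdkn, Itga, Serpina and Tspan higher. Akr held 3 rises and 0 falls, Cdkn and Itga 3 rises and 1 fall each, Serpina 4 and 1, and Tspan 4 and 2. In Tspan the deepest fall was -3.32 and the largest rise 0.79, so these families did not move in 1 direction as a whole. No family was tested as a set.

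No member was called in 7 of the 49 lists. Those were the complement genes (10 tested, median 0.28, the largest change Cfb with 0.68 ± 0.25), the Fc receptors (12, 0.18, Fcer2a with 0.41 ± 0.20), the marginal zone and B1 genes (Cd5 with 0.64 ± 0.24) and the GTPases of immunity proteins (5, 0.35, Gimap9 with 0.52 ± 0.23). The MHC class I genes (H2-Q6 with 0.46 ± 0.25), the genes of glycolysis (14, -0.00, Slc2a3 with -0.52 ± 0.21) and the pancreas and adipose genes (20, 0.20, Adipoq with -1.44 ± 0.63) make up the remainder. Their adjusted p-values lay above 0.05, which does not show that these genes did not change: most medians were positive, as was that of 32 of the 49 lists. At most 2 calls were found for the circadian clock (13 tested, median 0.03), cholesterol and fatty acid synthesis (24, 0.06) and the interferon-inducible GTPases (8, 0.32), and each was lost without 1 pool or another. The 3 rises among 23 Toll-like receptors and innate sensors (median 0.21) were lost in the same way: 0 were called without control replicate 2 or 1 Gy replicate 1.

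The gene lists covered a minority of the change. Of the tested genes with a symbol, 483 rose (4.67%) and 605 fell (5.85%), 1088 in all. Of these, 832 (76.5%) were in none of the 49 lists, 414 of them higher and 418 lower. The falls with the largest size among these, named after their values were seen, included Ctse, the protease cathepsin E, with a log2 signal of 7.37, 7.10, 7.93 and 7.70 in the 1 Gy pools, against 10.97, 12.04, 11.32 and 12.32 in the control pools (-4.14 ± 0.42, adjusted p = 2.24e-06). Tspan8, a tetraspanin, was detected in every control pool and no 1 Gy pool and was at least 8.98-fold lower. Mgst3, a microsomal glutathione transferase, changed by -3.29 ± 0.38, Ackr1, the Duffy chemokine receptor of red cells and venules, by -2.51 ± 0.35, Slc6a9, a glycine transporter, by -2.35 ± 0.35, and Eif2ak1, the heme-regulated kinase of translation, by -1.17 ± 0.24. C1qtnf12, a secreted hormone-like protein, changed by -3.12 ± 0.31. Their cell of origin was not measured.

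Rises outside the lists were smaller and more mixed. The uncharacterised gene 2510002D24Rik had a log2 signal of 8.08, 8.20, 8.49 and 8.35 in the 1 Gy pools, against 7.08, 6.91, 7.08 and 7.09 in the control pools, and all 1 Gy pools were above all control pools (1.24 ± 0.13, adjusted p = 3.61e-06). Sec24b, a coat protein of transport vesicles, rose by 1.14 ± 0.15, Coro1b, an actin-binding protein, by 0.999 ± 0.13, and Cdkn1c, the cell cycle inhibitor p57, by 0.91 ± 0.18. Gas6, a ligand that bridges dying cells to macrophage receptors, had a log2 signal of 11.92, 12.02, 11.52 and 11.76 in the 1 Gy pools, against 10.81, 10.90, 11.36 and 10.76 in the control pools (0.85 ± 0.17, adjusted p = 0.00289). Il33, a cytokine of stromal nuclei, rose by 0.64 ± 0.12, and Rab20, a small GTPase of phagosomes, by 0.79 ± 0.08. The log2 signal of Rab20 was 7.54, 7.81, 7.41 and 7.65 in the 1 Gy pools, against 6.73, 6.77, 7.0 and 6.77 in the control pools, with every irradiated pool above every control pool.

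Few named genes appeared or disappeared outright. By detection p, 43 named genes were detected in all 4 control and in no 1 Gy pools, and 14 in all 4 irradiated and in no control pools. Besides Hbq1b and Tspan8, the first group included Tlcd4 (at least 6.95-fold lower) and Ypel4 (at least 5.76-fold lower), whose calls were lost with the inferred background. In the second group the changes were small: D630023F18Rik, an uncharacterised gene, was at least 1.73-fold higher (0.94 ± 0.12), and 9330151L19Rik at least 1.44-fold (0.78 ± 0.09). For such a bound the brighter group was divided by what the other group could at most hold: the dim probe's own signal or, where higher, the faintest detected signal of each array. The largest falls of all belonged to probes without a symbol, ILMN_1241039 with -5.59 ± 0.38 and ILMN_2696696 with -5.57 ± 0.49.

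The 1 Gy pools were also set against the 10 cGy pools of the same strain. Between these, 30 features (0.195% of those tested) differed at an adjusted p under 0.05, 16 higher and 14 lower at 1 Gy, and 822 had an unadjusted p under 0.05. Among those higher at 1 Gy were p53 targets: Cdkn1a had 10.46, 10.82, 10.33 and 9.74 in the 1 Gy pools, against 8.99, 8.82, 8.71 and 8.78 in the 10 cGy pools (1 Gy minus 10 cGy 1.51 ± 0.18, adjusted p = 1.09e-04), and Ccng1, cyclin G1, had 11.35, 11.29, 10.90 and 11.01 in the 1 Gy pools, against 10.29, 10.29, 10.26 and 10.37 in the 10 cGy pools (0.83 ± 0.10, adjusted p = 1.09e-04). Phlda3 (0.98 ± 0.16), Psmb1 (1.57 ± 0.23), Rab20 (0.49 ± 0.08), D630023F18Rik (0.90 ± 0.12) and 2510002D24Rik (0.85 ± 0.13) differed in the same way. Lower at 1 Gy were Alas2 (-2.999 ± 0.34, adjusted p = 8.44e-05), Slc4a1, which exchanges chloride and bicarbonate across the red cell membrane (-2.93 ± 0.35), and Hbb-b2 (-2.34 ± 0.23). These calls held without any single pool. For Mmp2 (0.68 ± 0.14) and Rsad2 (-1.52 ± 0.31) the difference between the doses was called over all pools (adjusted p = 0.0393 and 0.0393) but lost without any of several pools, 1 Gy replicates 1 and 4 and 10 cGy replicates 1 and 2 among them.

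For granule and platelet genes the difference between the doses was not called. Averaged over the primary granule genes, the log2 signal was 9.41 to 10.82 in the control pools, 7.69 to 8.30 in the 10 cGy pools and 7.66 to 8.01 in the 1 Gy pools. Prtn3 differed by -0.16 ± 0.48 between the doses (1 Gy minus 10 cGy, adjusted p = 0.999) and Vwf by -0.00 ± 0.18 (adjusted p = 1). The megakaryocyte and platelet genes averaged 9.59 to 10.38 in control, 8.53 to 8.93 at 10 cGy and 8.68 to 8.88 at 1 Gy. Red cell membrane genes were stepped, with 10.08 to 11.08 in control, 8.13 to 9.63 at 10 cGy and 7.61 to 7.85 at 1 Gy, and the mitosis genes averaged 9.45 to 10.04, 8.72 to 8.95 and 8.27 to 8.76 in the same order. The control pools had the widest spread of the 3 groups for the granule and platelet lists.

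**Figure D4:**
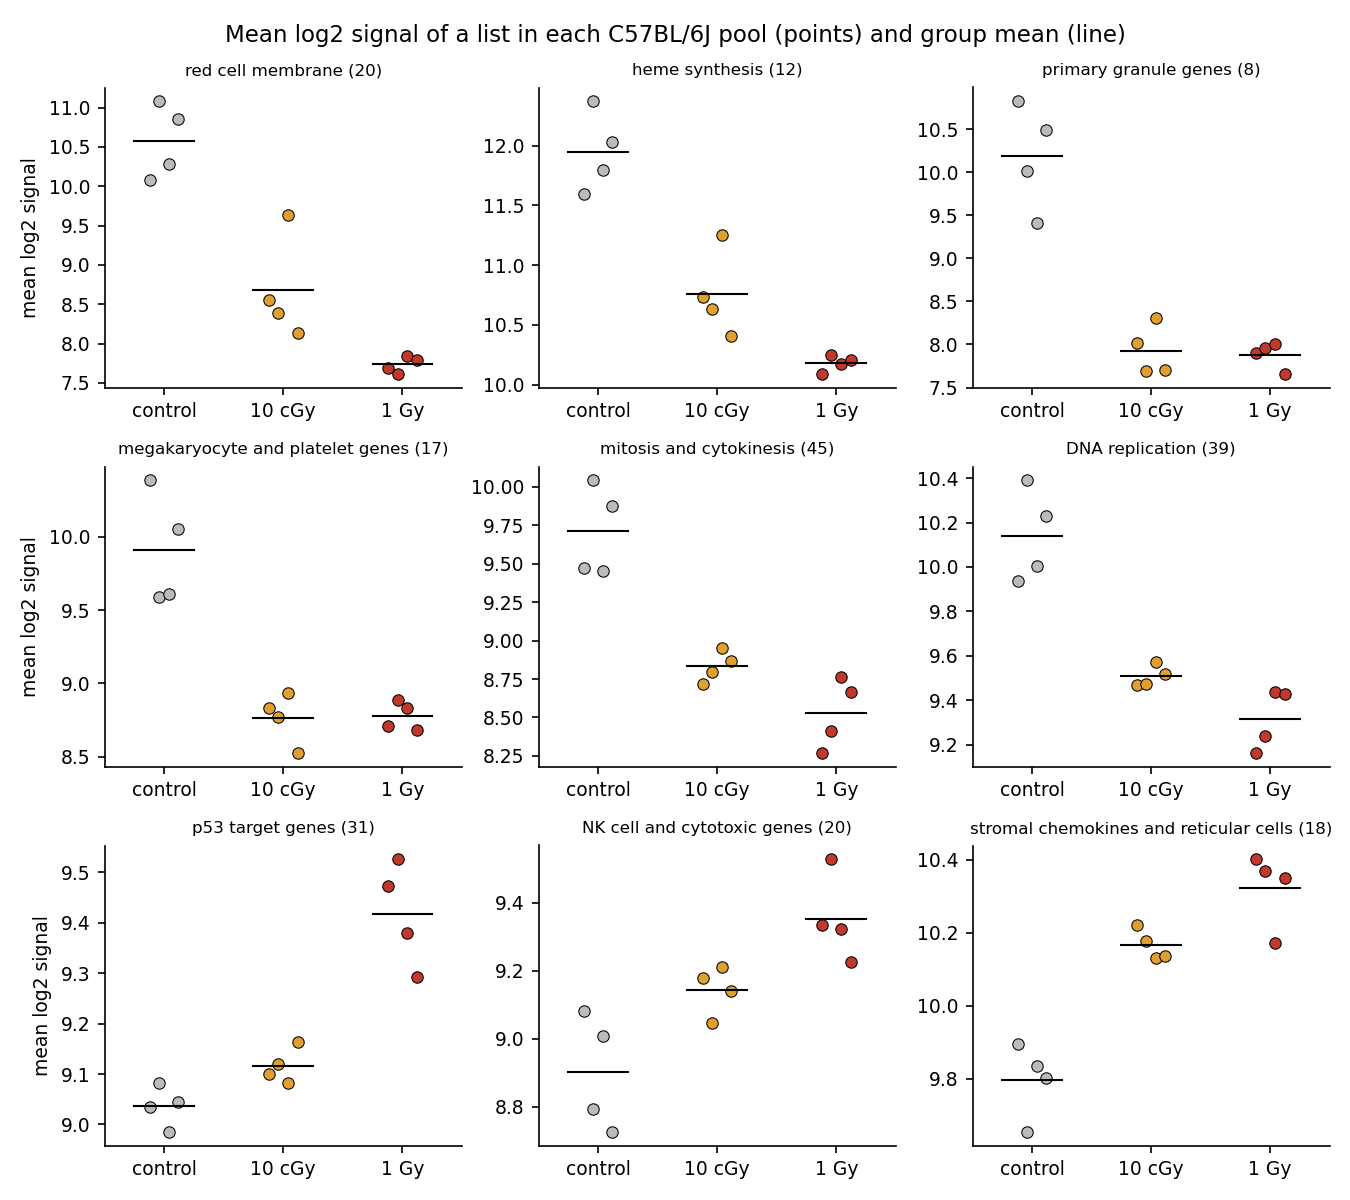
For 9 gene lists (tested members in brackets), each point is the mean log2 signal of the list in 1 C57BL/6J pool of the control (grey), 10 cGy (orange) or 1 Gy (red) group, and the line is the group mean; each panel has its own y axis. The pools of both doses overlap in the granule and platelet lists, and the 1 Gy pools lie lowest in the red cell lists and highest in the p53 list.

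The 1 Gy effect was tested against that in DBA/2J mice, as the DBA/2J change minus the C57BL/6J change. It differed between the strains for 63 features (0.410% of those tested), all of which were among the 1382 called in C57BL/6J (4.56% of them), and an unadjusted p under 0.05 was found for 675. For 61 of the 63 the DBA/2J change was the more positive. The difference contains the C57BL/6J change itself, and features were kept by detection on C57BL/6J arrays. The overlap with the 1382 calls and this direction are therefore no independent result. Prtn3 changed by -4.18 ± 0.48 in C57BL/6J and by 0.43 ± 0.48 in DBA/2J (difference 4.61 ± 0.68, adjusted p = 0.00189), and Elane by -3.87 ± 0.48 in C57BL/6J and 0.41 ± 0.48 in DBA/2J (difference 4.28 ± 0.68). For these genes the strains did not start from the same mean level: the control pools averaged 11.53 ± 0.90 in C57BL/6J and 8.79 ± 1.24 in DBA/2J for Prtn3, and 11.80 ± 0.86 in C57BL/6J and 9.49 ± 1.21 in DBA/2J for Elane (SD, n = 4 each). Neither the difference between these starting levels nor its part in the result was tested. Vwf changed by -1.04 ± 0.18 in C57BL/6J and 0.55 ± 0.18 in DBA/2J (difference 1.59 ± 0.26, adjusted p = 0.00481). Among red cell genes, Hbb-b2 changed by -3.50 ± 0.23 in C57BL/6J and -0.64 ± 0.23 in DBA/2J (difference 2.86 ± 0.32, adjusted p = 1.66e-04). Its control pools averaged 11.62 ± 0.54 in C57BL/6J and 15.04 ± 0.09 in DBA/2J, the second near the bright end of the scale. Whether changes are compressed there was not tested. Which beta globin transcript the probe annotated to Hbb-b2 reads in each strain was not tested either. Slc4a1 changed by -4.83 ± 0.35 in C57BL/6J and -1.18 ± 0.35 in DBA/2J (difference 3.65 ± 0.50, adjusted p = 0.0014). These 5 calls held without any single pool. The difference was not called for Kel (3.01 ± 0.72, adjusted p = 0.0692), Cdca3 (0.89 ± 0.46), Tfrc (1.57 ± 0.60), Cdkn1a (-0.75 ± 0.25) or Ccng1 (-0.03 ± 0.14). In the other direction, 2510002D24Rik rose by 1.24 ± 0.13 in C57BL/6J and was measured at 0.30 ± 0.13 in DBA/2J (difference -0.94 ± 0.19), a call that was lost without any of 10 single pools. The count of 63 was 20 without DBA/2J 1 Gy replicate 3, 102 without DBA/2J control replicate 1 and 26 without both C57BL/6J pools that carried pancreatic transcripts. Probes bind fixed sequences, and the part of sequence differences between the strains in these values was not tested.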

How the data were processed

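RNA of spleens was hybridised to 1-colour Illumina bead arrays (Cy3), 23 in all, each a pool of 2 mice. The deposited table holds, per the file headers, a signal intensity and a detection p-value per probe, without normalization between arrays. The values were processed with lumi, per the submitters' processing notes; its version and the scanner software are not given in the sources used here. As an alternative, the authors' processed log2 values were used, which had array medians of 8.09 to 8.10 and ranked the probes of each array as the signals do, so the scale is that of a log signal, while the exact transform and any centring are unknown. Detection p-values did not always fall with signal: of 7090 probes with a mean signal over 500, the filter left out 302.

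From the signals, background was corrected with limma 3.58.1 (R 4.3.3; normexp, saddle, offset 50) on all 34492 probes, followed by quantile normalization over the 23 arrays and log2. A level is therefore a log2 value with an offset, which understates changes of dim genes, and is not compared between genes. Probes with a detection p under 0.05 on at least 3 of the 8 arrays were kept (16402), and the brightest kept probe stood for its gene, giving 15348 features. Symbols came from the platform annotation: 20256 probes had 1 symbol, 9 several and 14227 none. Groups came from the strain and treatment labels, and 0 columns were left unmapped. A linear model over all 6 groups with moderated variance (lmFit, eBayes) gave each comparison, with Benjamini-Hochberg adjustment over all features and a threshold of 0.05. The replicate numbers are in accession order and pair nothing. The model was tested on simulated data. The precision is limited by 4 pools a group, and slides or scan dates were not used here.

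The members and gene lists were chosen with earlier results of these data known. Genes were named by size or p-value of the change, by size within each list, or by detection in 1 group, and Gata1, Epor, Alad, Urod, Slc25a38, Tmem14c, S100a8, S100a9, Vwf, Plk1, Aurka, Aurkb, Top2a, E2f1, Chaf1b, Fen1, the Mcm and histone genes, Zmat3, Plk2, Sulf2, Bbc3, Fas, Gadd45a, Ppp1r15a, Paxx, Xrcc4, Fasl, Nkx2-3, Trim30a, Mgst3, Ackr1, Slc6a9, Eif2ak1, Cdkn1c, Gas6 and Il33 and the markers Cd79b, Cd3e and C1qa after their values were seen. Promoter windows came from RefSeq (GRCm38.p6), matched by Entrez gene ID for 8395 of 10334 genes. Alternatives changed the background correction, offset, normalization, filter, probe rule, arrays in the model, weights and variance prior, or left out pools.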

Additional observations from a re-analysis of the deposited data

Results flagged for a closer look

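Among 284 groups of 4 pools looked at for the named genes, 12 held a pool whose gap to the nearest other, divided by the range of the group, was above the 95% critical value of Dixon's test, and chance gives about 5% of groups. For Epor, 1 Gy replicate 2 had a log2 signal of 7.22 where the rest of the 1 Gy pools had 7.33 to 7.35 (gap over range 0.859). For Lcn2, 1 Gy replicate 4 had a log2 signal of 9.08 where the rest of the 1 Gy pools had 9.91 to 9.96 (gap over range 0.942). For Epx, control replicate 3 had a log2 signal of 6.98 where the rest of the control pools had 8.12 to 8.33 (gap over range 0.844). For Mcm8, control replicate 3 had a log2 signal of 7.36 where the rest of the control pools had 6.78 to 6.83 (gap over range 0.921). For Mcm9, 1 Gy replicate 1 had a log2 signal of 6.68 where the rest of the 1 Gy pools had 6.82 to 6.84 (gap over range 0.886). For Sulf2, control replicate 2 had a log2 signal of 9.50 where the rest of the control pools had 9.29 to 9.32 (gap over range 0.833). For Bbc3, control replicate 2 had a log2 signal of 6.69 where the rest of the control pools had 6.74 to 6.74 (gap over range 0.888). For Gadd45a, control replicate 2 had a log2 signal of 11.98 where the rest of the control pools had 11.44 to 11.53 (gap over range 0.844). For Fasl, 1 Gy replicate 2 had a log2 signal of 9.15 where the rest of the 1 Gy pools had 8.63 to 8.69 (gap over range 0.873). For Adipoq, 1 Gy replicate 1 had a log2 signal of 7.76 where the rest of the 1 Gy pools had 6.81 to 6.95 (gap over range 0.847). For 2510002D24Rik, control replicate 2 had a log2 signal of 6.91 where the rest of the control pools had 7.08 to 7.09 (gap over range 0.948). For Rab20, control replicate 3 had a log2 signal of 7.0 where the rest of the control pools had 6.73 to 6.77 (gap over range 0.832). 

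For 25 printed features the change after 1 Gy differed between the strains by the test of the difference itself (limma, DBA/2J change minus C57BL/6J change). The call held without any single pool for 9 of them, with log2 differences as follows: Car1 (3.94), Hbb-b2 (2.86), Prtn3 (4.61), Elane (4.28), Ctsg (4.41), Vwf (1.59), Muc13 (1.62), C1qtnf12 (2.67) and Slc4a1 (3.65). Of these, the Muc13 call was lost with the inferred background and with the authors' processed values, and the Ctsg call with the inferred background. For the other 16 it was lost without 1 or more pools, and the differences over all pools were those of Slc38a5 (3.30), Alas2 (2.51), Klf1 (3.38), Tal1 (2.38), Ngp (3.97), Ltf (3.97), Lcn2 (3.65) and S100a8 (1.64). The remaining ones were Treml1 (2.01), Gp5 (1.89), Mt1 (1.05), Ctse (2.88), 2510002D24Rik (-0.94), Tlcd4 (2.25), ILMN_1241039 (2.83) and ILMN_2696696 (3.49). The other direction, a less positive change in DBA/2J, was found for 2510002D24Rik alone among these.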

How the results depend on the processing

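The direction of every one of the 1382 calls held in each alternative that tested it. The count of features called, 1382, was 2493 with array weights and 871 without both pools with pancreatic transcripts, and 877 to 1297 when single C57BL/6J pools of the 2 groups were left out. The count of rises, 623, was 314 with median scaling, 1329 with array weights and 321 without both pools with pancreatic transcripts, and 338 to 557 without single pools. The count of falls, 759, was 427 with the background inferred from the detection p-values, 1164 with array weights, and 537 to 761 without single pools. The strain difference, 63 features, was 39 with the inferred background, 26 with the authors' processed values, 271 with array weights, 26 without both pools with pancreatic transcripts, and 20 to 102 without single pools. The difference between 1 Gy and 10 cGy, 30 features, was 78 with array weights and 20 to 43 without single pools. The median change of all features lay between 0.007 and 0.054, against 0.043 here, so no scaling moved it by over 0.1. The filter on signal and the alternatives for the strain and dose comparisons were chosen after seeing the data. No paired analysis was possible because the replicate numbers follow accession order and pair no samples. Precision is set by 4 pools a group, and dim probes near the offset have compressed changes.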

Other observations

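The share of features called depended on their level. Of 3083 features with a mean log2 signal of 6.5 to 7, 1.17% rose and 1.69% fell after 1 Gy, beside 6.16% and 6.35% of 4595 features at 8 to 10. At levels above 12, where 1159 features lay, 2.59% rose and 6.47% fell. The offset compresses changes of dim features.

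Named genes that rose or fell were spread over the chromosomes. The median change per autosome lay between 0.03 and 0.07, and 32 genes rose and 63 fell among 918 tested on chromosome 11, which holds the alpha globin genes, beside 37 and 37 among 623 on chromosome 4. No test of these shares was made.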
